A study of Mus musculus with 21 samples.

Results

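The 3 mouse embryonic stem cell libraries labelled CH+LIF LP were compared with the 3 libraries labelled 2i+LIF PO, the start of the culture. They are 6 of the 21 mRNA sequencing libraries of a study of media that keep such cells pluripotent, and their group labels define them. All 6 came from E14Tg2a, a single male line of 129 background in which a knock-in at 1 allele of Rex1 (Zfp42) encodes the short-lived reporter GFPd2. PO was read as zero passage, because it occurs in 2i+LIF alone; the series covers zero passage and 2 later times, and the labels do not say how long LP was. CH is CHIR99021, an inhibitor of GSK3, and LIF is the cytokine that activates STAT3. The name 2i usually stands for CHIR99021 together with PD0325901, which inhibits the kinase MEK. The same growth protocol, in which drugs alternate with their withdrawal from passage to passage, was given for all groups. It names 3 µM CHIR99021, 1 µM PD0325901 and 1 week of maintenance for every library, those labelled CH+LIF LP included. What the cells received at harvest is therefore known from the group name only.

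In embryonic stem cells, FGF4 signals through MEK and ERK and primes the cells for differentiation; MEK inhibition silences the feedback genes of that pathway. GSK3 inhibition stabilises beta-catenin, which lifts repression by TCF7L1 from Esrrb, Tfcp2l1 and other genes of the naive state. Long culture under MEK inhibition is known to lower DNA methylation, which holds imprints in place and keeps many germline genes silent.

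The PO libraries had 2998748 to 3783043 counts in genes and the CH+LIF LP libraries 1328735 to 1848516. The file names place PO in another sequencing run than every other group, so the run and the PO group cannot be told apart in any value below. PO replicate 1 stood apart. Mitochondrial genes took 39.1% of its counts, against 7.55 and 7.83% in the other PO libraries and 1.97 to 4.84% in CH+LIF LP, and its mean correlation with its replicates was 0.83, against 0.889 to 0.929 for the other 5 libraries. The ribosomal RNA locus Gm42418 took 1.76 to 7.19% of counts in PO and 7.49 to 9.01% in CH+LIF LP. Replicates of a group differed by more than sampling noise in every pair (chi-square per degree of freedom of 5.39 or more). Nothing in the labels says that replicates were separate cultures, so p-values measure the spread between these libraries, which may be technical.

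Of 10643 genes tested, 884 were called, which is 8.31%: 451 (4.24%) were higher and 433 (4.07%) lower in CH+LIF LP. A call is an adjusted p under 0.05 in edgeR's quasi-likelihood test with Benjamini-Hochberg adjustment, as are all adjusted p-values below. Levels are in CPM (counts-per-million of the TMM-scaled library size), fold changes are log2 values of CH+LIF LP over PO, and errors of fold changes are standard errors. The median fold change of the genes called was 1.92 for those higher and -2.10 for those lower, and 216 and 251 of them differed over 4-fold. In 850 of the 884 the CPM of the groups did not overlap, against 2919 (27.4%) of all genes tested. The count of 884 became 390, 407 and 536 without CH+LIF LP replicate 1, 2 and 3. It became 1384 when 2i+LIF LP replicate 1, which enters the estimate of spread only, was left out. Without PO replicate 1 it was 764, and 452 in a fit of the 6 libraries alone.

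**Figure D1:**
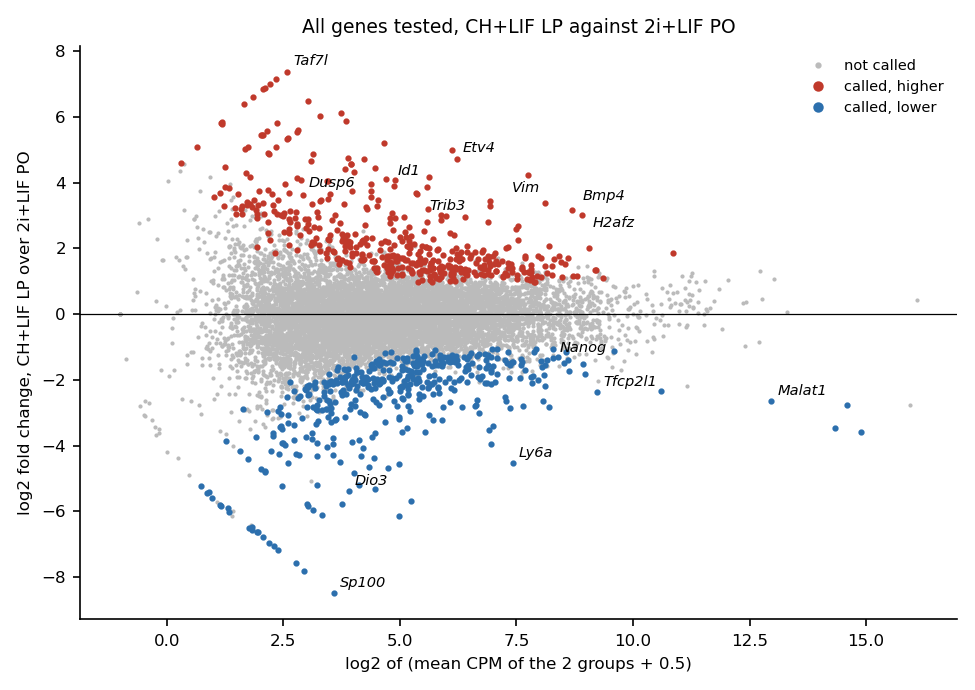
Each point is 1 of the 10643 genes tested, by the log2 of its mean CPM over both groups plus 0.5 (horizontal) and its log2 fold change in CH+LIF LP over 2i+LIF PO (vertical). Red points are the 451 genes called higher and blue points the 433 called lower; grey points were not called.

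Of the MEK-ERK target list 9 of 22 tested genes (40.9%) were called, each of them higher. Of the nuclear genes of oxidative phosphorylation 1 of 44 was called, and 5 when 2i+LIF LP replicate 1 was left out; differences in share between lists were not tested. The naive pluripotency list had 6 of 20 genes called, each of them lower.

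**Figure D2:**
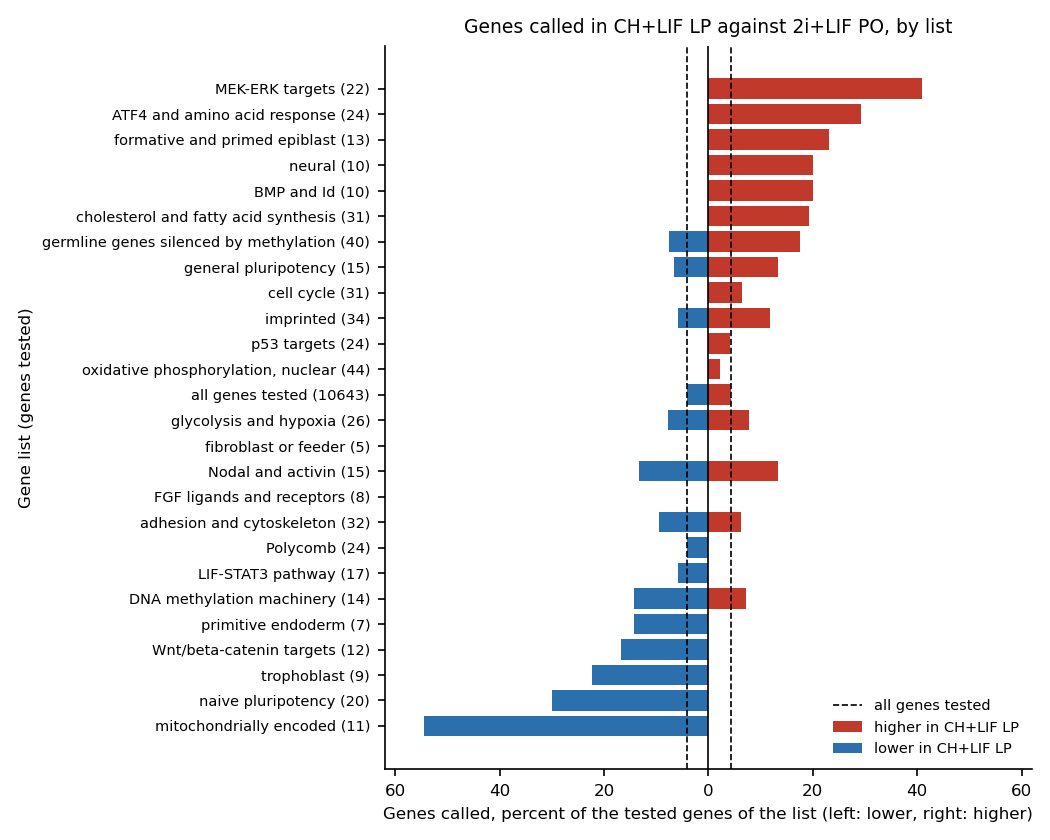
Bars give the percent of each list's tested genes that were called higher (red, to the right) or lower (blue, to the left) in CH+LIF LP, with the number tested in brackets. Dashed lines mark the shares over all genes tested, 4.24% higher and 4.07% lower. Lists with fewer than 5 tested genes are left out.

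The 9 called MEK-ERK targets, higher in CH+LIF LP, included feedback inhibitors and transcription factors of the pathway. Dusp6 (ENSMUSG00000019960, chr10:99263231-99267489 in GRCm38), the phosphatase that inactivates ERK, had 3.69, 2.61 and 2.24 CPM in the PO libraries and 33.4, 41.8 and 38.7 CPM in the CH+LIF LP libraries. The groups lay far apart, with means of 2.85 ± 0.753 and 38 ± 4.22 CPM (SD, n = 3), and the fold change was 3.75 ± 0.70 (adjusted p = 0.00176). Etv4 (ENSMUSG00000017724, chr11:101769742-101785371), an ETS factor induced by FGF signalling, had the smallest adjusted p of any gene. It had 4.75, 6.54 and 4.49 CPM in PO and 122.6, 148.9 and 155.7 CPM in CH+LIF LP (fold change 4.73 ± 0.42, adjusted p = 1.79e-07). Its relative Etv1 had 5.8, 12.3 and 10.5 against 41.7, 37.5 and 32.7 CPM (1.94 ± 0.47, adjusted p = 0.0118), again without overlap.

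Genes nearly silent in PO were among them. The immediate-early factor Egr1 had 0, 0.523 and 0.499 CPM in PO and 52.3, 16.3 and 12.9 CPM in CH+LIF LP (5.89 ± 1.02, adjusted p = 0.000836). CH+LIF LP replicate 1 was the high library. Spry4, an inhibitor of receptor tyrosine kinase signalling, had 1 count in the PO libraries together and 38 in CH+LIF LP, a ratio of 81 per total count with a 95% counting interval of 13.7 to 3283 (adjusted p = 0.00347). Spred1, a further inhibitor of the pathway, had 7.84 to 11.2 CPM in PO and 42.5 to 76.5 CPM in CH+LIF LP (2.65 ± 0.65, adjusted p = 0.0134). Phlda1 had 3.4 to 8.23 and 31.1 to 67.8 CPM (3.09 ± 0.57, adjusted p = 0.00151). These 7 calls held when each of the 6 libraries was left out in turn. The remaining 2 calls did not: Ier3 (1.97 ± 0.52, adjusted p = 0.0193) was lost without PO replicate 1 or 2 or CH+LIF LP replicate 1 or 2 (0.0512 to 0.063), and Fos (2.27 ± 0.71, adjusted p = 0.0455) without any one of the 6 (0.0687 to 0.143).

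Not every ERK target differed. Etv5, the third ETS factor of this family, had 141.4, 244.5 and 316.1 CPM in PO and 192, 215 and 265 CPM in CH+LIF LP (-0.06, adjusted p = 0.935). Spry2 had 126 to 176 CPM and 218 to 356 CPM without overlap, but missed the threshold (0.81, adjusted p = 0.205). Ccnd1, the cyclin D1 gene, overlapped between the groups at 87.3 to 221 and 66 to 94.2 CPM. Over the 22 tested genes the median fold change was 0.84, against -0.06 over all genes tested, and 19 of the 22 values were above 0. Of the FGF ligands and receptors 0 of 8 tested genes were called. Fgf4, the ligand made by the stem cells themselves, had 217 to 272 CPM in PO and 94.9 to 201 CPM in CH+LIF LP (-0.68, adjusted p = 0.239).

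**Figure D3:**
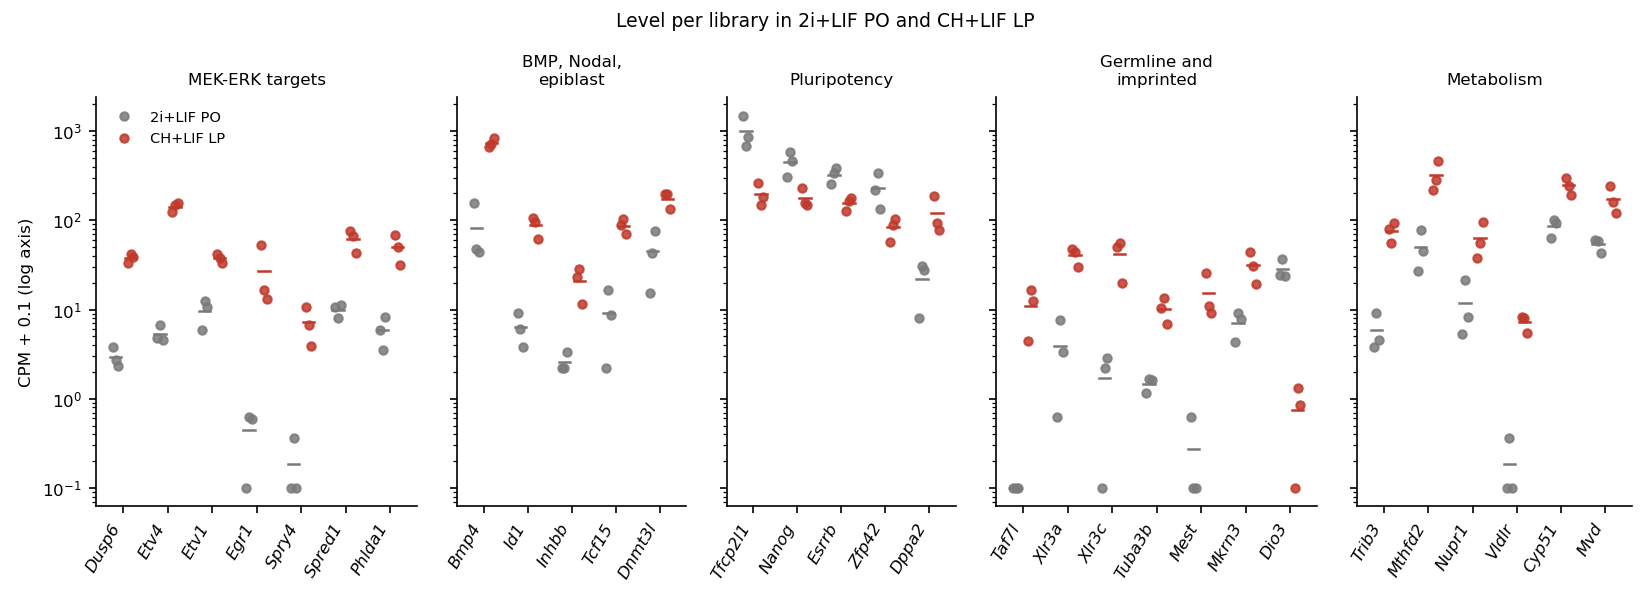
Each dot is 1 library (grey, 2i+LIF PO; red, CH+LIF LP) and each line the mean of 3, as CPM plus 0.1 on a log axis, for genes grouped by pathway. The groups do not overlap in any gene shown; Dio3, Tfcp2l1, Nanog, Esrrb and Zfp42 are lower and the other genes higher in CH+LIF LP.

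Of 10 genes of BMP signalling and its Id targets 2 rose and 0 fell. Bmp4 (ENSMUSG00000021835, chr14:46383520-46390669, overlapping Gm15217 and Gm15222) encodes the ligand that sustains Id gene expression in these cells. It had 157.2, 47.1 and 44.1 CPM in PO and 658, 720 and 847 CPM in CH+LIF LP (3.17 ± 0.70, adjusted p = 0.00666), with PO replicate 1 the highest of its group. Id1 (ENSMUSG00000042745, chr2:152736251-152737410), a BMP target that blocks neural differentiation, had 8.97, 6.01 and 3.74 CPM and 107, 95.6 and 62.3 CPM (3.86 ± 0.63, adjusted p = 0.00045). Both groups were again clearly apart. Of the other 8 tested genes of the BMP list none was called: Id2 had 5.75 to 14 against 27.3 to 53.8 CPM (1.89, adjusted p = 0.0996), while Id3 overlapped at 4.22 to 18.4 and 9.69 to 31.9 CPM.

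In the Nodal and activin list 2 of 15 tested genes rose and 2 fell. Inhbb, a subunit of activin B, had 2.11, 2.09 and 3.24 CPM in PO and 22.8, 28.4 and 11.4 CPM in CH+LIF LP (3.02 ± 0.66, adjusted p = 0.00629). Lefty1, a secreted Nodal antagonist, had 13.7 to 68.2 and 74.4 to 227 CPM (1.89 ± 0.54, adjusted p = 0.0308). The activin antagonist Fst had 12.7 to 36.9 and 3.04 to 4.36 CPM (-2.45 ± 0.71, adjusted p = 0.0315), and Pcsk6, a convertase that processes Nodal, had 54.3 to 108 and 25.1 to 35.7 CPM (-1.47 ± 0.37, adjusted p = 0.0139). Only Inhbb kept its call under each of the 6 omissions. Lefty1 lost it without PO replicate 1 or 3 or CH+LIF LP replicate 1 or 2 (0.0767 to 0.146), Fst without PO replicate 1 or any CH+LIF LP library (0.0906 to 0.115), and Pcsk6 without replicate 3 of either group (0.0516 to 0.0646). Nodal itself had 57.5 to 76.5 and 31.5 to 58.1 CPM and was not called.

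Of 13 tested genes of the formative and primed epiblast 3 rose and 0 fell, with a median fold change of 1.06. Tcf15, a helix-loop-helix factor of cells leaving the naive state, had 2.11, 16.5 and 8.48 CPM in PO and 89.1, 102 and 69.9 CPM in CH+LIF LP (3.20 ± 0.57, adjusted p = 0.00105). Pou3f1 (Oct6), a marker of that exit, had 1 count in PO and 28 in CH+LIF LP, a ratio of 59.7 (9.87 to 2441, adjusted p = 0.0124). Dnmt3l, the cofactor of the de novo methyltransferases, had 15.3, 43.1 and 76.3 CPM against 195, 199 and 132 CPM (1.95 ± 0.55, adjusted p = 0.0281). Tcf15 was called under each omission; Pou3f1 was not without PO replicate 3 (0.0557), nor Dnmt3l without PO replicate 1 or 2 or CH+LIF LP replicate 1 or 2 (0.0678 to 0.0839). The count of 3 became 4 without PO replicate 1, 5 when 2i+LIF LP replicate 1 was left out, and 2 at the lowest. Otx2, an early driver of the primed state, overlapped between the groups at 5.28 to 24.8 and 15.1 to 20.5 CPM, and the primed marker Fgf5 was too low to test, at 0.523 CPM or less in PO and 0.484 to 5.32 CPM in CH+LIF LP.

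Of 12 Wnt/beta-catenin targets tested 0 rose and 2 fell, 10 of the 12 fold changes were below 0, and the median was -2.03. Sp5 (ENSMUSG00000075304, chr2:70474923-70477729), a direct target of beta-catenin, had 32.2, 2.35 and 11.5 CPM in PO and 0.969, 0.605 and 1.52 CPM in CH+LIF LP (-3.79 ± 0.97, adjusted p = 0.0168). Notum, a secreted Wnt antagonist, had 24.3, 16.5 and 9.22 CPM and 0.484, 1.82 and 4.56 CPM (-2.91 ± 0.92, adjusted p = 0.0473). Neither call held under all 6 omissions. Notum lost its call under each of them (adjusted p = 0.0506 to 0.195), at fold changes of -3.83 to -2.37. Sp5 lost it without PO replicate 1, with a fold change of -2.73 (adjusted p = 0.0885), and without CH+LIF LP replicate 1 or 2. The count of 2 was 0 under these 3 omissions and 1 without replicate 3 of either group. Axin2 overlapped between the groups at 5.23 to 14.8 and 0 to 10.6 CPM (-0.99, adjusted p = 0.461), and T (brachyury) had no counts in any of the 6 libraries. Sp5 is shown here because its promoter is the one among the called Wnt targets that RefSeq's table (build GRCm38.p6) holds. The 250 bases before its start, at chr2:70474673-70474922 on the plus strand, hold the TCF/LEF letters CTTTGAT once (capitals, both strands searched); the same letters occur in 3.21% of 32851 promoter windows of this length.
Sp5: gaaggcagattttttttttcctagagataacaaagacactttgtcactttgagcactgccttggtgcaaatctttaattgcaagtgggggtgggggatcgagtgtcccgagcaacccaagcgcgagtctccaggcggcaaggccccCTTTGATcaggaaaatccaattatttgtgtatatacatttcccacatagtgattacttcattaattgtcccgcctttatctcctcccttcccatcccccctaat

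Of 20 naive pluripotency genes 6 fell, and of 15 general pluripotency genes 2 rose and 1 fell; the difference between the lists was not tested. Tfcp2l1 (ENSMUSG00000026380, chr1:118627945-118685168), a target of both LIF and GSK3 inhibition, had 1477, 687 and 861 CPM in PO and 258.7, 146.5 and 183.0 CPM in CH+LIF LP (-2.36 ± 0.46, adjusted p = 0.00234). It was the gene of this list that was called under each of the 6 omissions. It was also the 1 gene called of 17 in the LIF-STAT3 list (5.88%, beside 8.31% of all genes tested). Nanog (ENSMUSG00000012396, chr6:122707489-122714633) had 308, 579 and 460 CPM and 228.7, 157.4 and 146.6 CPM (-1.34 ± 0.37, adjusted p = 0.0268). Zfp42 (Rex1), the gene that carries the reporter on 1 allele, had 217, 343 and 135 CPM and 57.7, 89 and 103 CPM (-1.48 ± 0.36, adjusted p = 0.0116). In none of these 3 genes did the groups overlap. Esrrb, Nr5a2 and Prdm14 were also called, with fold changes of -1.06, -1.44 and -2.06 (adjusted p = 0.0488, 0.0368 and 0.0339).

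The count of 6 was 5 without PO replicate 1, 2 without PO replicate 2 or 3 or CH+LIF LP replicate 1 or 2, and 3 without CH+LIF LP replicate 3. In a fit of only the groups compared it was 1. Nanog was lost without replicates 2 or 3 of either group (adjusted p 0.0529 to 0.0983) and Zfp42 without PO replicate 2 or CH+LIF LP replicate 1 (0.0747 to 0.0785). Klf4, a STAT3 target, overlapped between groups at 314 to 417 and 184 to 324 CPM, as did Klf2 at 210 to 667 and 481 to 704 CPM. Sox2 was at 427 to 623 and 512 to 718 CPM, Stat3 at 160 to 240 and 167 to 173 CPM and its feedback inhibitor Socs3 at 32.2 to 104 and 39.5 to 78 CPM; none was called. Pou5f1 (Oct4), whose near-identical pseudogenes can take reads from it when only unique alignments count, was at 25.9 to 31.2 and 29.1 to 50.1 CPM. In a bulk library fewer cells with a transcript and less of it per cell cannot be told apart.

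Some general pluripotency genes moved against each other. Dppa2, a DNA-binding protein of the inner cell mass, had 7.91, 30.6 and 27.7 CPM in PO and 187, 93.8 and 77.5 CPM in CH+LIF LP (2.41 ± 0.46, adjusted p = 0.0023), called under each omission. Lin28a, an RNA-binding protein that blocks let-7 maturation, had 14.4 to 20.9 and 60.6 to 103 CPM (2.05 ± 0.53, adjusted p = 0.0173), a call lost without PO replicate 2 or CH+LIF LP replicate 3. Dppa5a, which has near-identical copies, had 181, 969 and 376 CPM and 23.7, 87.8 and 108 CPM (-2.81 ± 0.78, adjusted p = 0.0262), lost without PO replicate 2 or CH+LIF LP replicate 1 or 2.

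Calls among germline genes that promoter methylation normally silences went both ways. Of 40 tested genes 7 were higher and 3 lower, beside 4.24% higher and 4.07% lower over all genes tested. The difference between the directions was not tested. The median fold change was 0.61, against -0.06 over all genes tested. Taf7l (ENSMUSG00000009596, chrX:134460118-134476490), a germ cell form of a TFIID subunit, had no count in any PO library and 4.36, 16.3 and 12.2 CPM in CH+LIF LP, which is at least 37-fold higher against 3 counts over the PO group (adjusted p = 0.000199). The X-linked lymphocyte-regulated genes Xlr3a and Xlr3c, near-identical copies whose reads may be split between them, had 0.528, 7.58 and 3.24 against 47.5, 44.2 and 29.6 CPM (3.29 ± 0.49, adjusted p = 0.000199) and 0, 2.09 and 2.74 against 49.9, 55.1 and 19.7 CPM (4.46 ± 0.58, adjusted p = 4.39e-05). Tuba3b, a testis tubulin with a close copy in Tuba3a, had 1.06 to 1.57 and 6.83 to 13.3 CPM (2.79 ± 0.54, adjusted p = 0.00239). In these 4 genes the groups did not overlap, and the calls held under each omission.

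The remaining 6 germline calls were less stable. Hormad1, a meiotic chromosome axis protein, had 2.64, 4.44 and 6.48 CPM in PO and 27.6, 25.4 and 15.2 CPM in CH+LIF LP (2.28 ± 0.71, adjusted p = 0.0458), and Brdt, a testis bromodomain protein, had 3.17, 1.57 and 3.49 CPM and no count in CH+LIF LP (at least 4.06-fold lower, adjusted p = 0.0488); both were lost without any one of the 6 libraries. Tuba3a and Majin rose and Sycp2 fell, each call being lost under 3 or 4 of the omissions. Sycp2 had 15.8 CPM in PO replicate 1 and 1.31 and 1.25 CPM in the others, against no count in CH+LIF LP. Zfp42 belongs to this list as well. The count of 7 higher genes ran from 4 (without CH+LIF LP replicate 2 or 3) to 6 and was 11 without 2i+LIF LP replicate 1; the 3 lower became 0 without CH+LIF LP replicate 1 and 1 without PO replicate 1 or 2 or CH+LIF LP replicate 2 or 3. Dazl, a germ cell gene used as a marker of lost promoter methylation, overlapped between groups at 15.3 to 48.9 and 15.9 to 73.2 CPM.

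The E-box letters CACGTG, read on both strands and part of the site of the complexes that hold germline promoters silent, were found in 3 of the 9 promoters of called germline genes that RefSeq's table holds, those of Taf7l, Hormad1 and Brdt, and in 6.02% of all 32851 promoters. A match is a description of the letters only. The 250 bases before the start are shown for the genes of this set that were higher, with the E-box in capitals: Taf7l at chrX:134476491-134476740, minus strand, with 1 match, and Hormad1 at chr3:95559427-95559676, plus strand, with 2. They hold 14 and 19 CG dinucleotides, where the median promoter holds 6 and the median of the 9 germline promoters is 9. Xlr3a and Xlr3c, also higher, hold 3 and 6. The table holds 2 promoters for Hormad1, of which the first was read. The E2F letters GGCGGGA were likewise found in 3 of the 9 germline promoters, and in 9.75% of all promoters.
Taf7l: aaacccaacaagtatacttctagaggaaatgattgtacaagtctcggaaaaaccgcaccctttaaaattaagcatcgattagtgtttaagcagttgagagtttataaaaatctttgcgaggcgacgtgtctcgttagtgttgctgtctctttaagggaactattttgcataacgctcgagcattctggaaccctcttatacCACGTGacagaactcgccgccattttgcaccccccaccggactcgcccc
Hormad1: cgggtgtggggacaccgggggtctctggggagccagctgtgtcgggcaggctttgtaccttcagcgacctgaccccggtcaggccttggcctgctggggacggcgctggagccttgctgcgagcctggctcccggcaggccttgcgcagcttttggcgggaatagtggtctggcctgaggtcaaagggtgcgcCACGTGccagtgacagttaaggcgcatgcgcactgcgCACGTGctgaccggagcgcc

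Of the DNA methylation machinery 14 genes were tested. Dnmt3l, given above, rose, and Zfp57 and Uhrf2 fell. Zfp57, the zinc finger protein that protects imprints, had 202, 94.9 and 69.6 CPM in PO and 38.8, 25.4 and 27.3 CPM in CH+LIF LP (-1.99 ± 0.46, adjusted p = 0.00873, and 0.0507 without CH+LIF LP replicate 2). Uhrf2 had 17.7 to 38 and 3.8 to 12.1 CPM (-1.75 ± 0.45, adjusted p = 0.0167), lost without PO replicate 1 or CH+LIF LP replicate 1 or 3. The de novo methyltransferases Dnmt3a, at 10.7 to 26.4 and 27.2 to 44.6 CPM, and Dnmt3b, at 30.9 to 58.6 and 59.9 to 121 CPM, did not overlap between groups but missed the threshold (1.17 and 1.08, adjusted p = 0.0851 and 0.0716). Dnmt1, the maintenance enzyme, was at 102.5 to 142.4 and 95 to 130 CPM, and its partner Uhrf1 at 86 to 166 and 41.7 to 148.8 CPM.

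Imprinted genes were called in both directions, 4 higher and 2 lower of 34 tested. Mest (ENSMUSG00000051855, chr6:30723547-30748465, overlapping Copg2), which is expressed from the paternal allele, had 1 count in PO and 83 in CH+LIF LP, a ratio of 177 with a counting interval of 30.9 to 7073 (adjusted p = 0.000199). Mkrn3, of the Prader-Willi region, had 4.22, 9.15 and 7.73 CPM and 43.6, 30.9 and 19 CPM (2.11 ± 0.43, adjusted p = 0.00374). In the opposite direction, Dio3 (ENSMUSG00000075707, chr12:110279068-110281097), the deiodinase of the Dlk1-Dio3 locus, had 24.3, 36.9 and 23.4 CPM in PO and 0, 1.21 and 0.759 CPM in CH+LIF LP, 281 counts against 3 (ratio 43.9, 14.9 to 214, adjusted p = 0.00193). These 3 held under each omission. Meg3, a noncoding RNA of the same locus as Dio3, was at 136 to 517 and 418 to 1120 CPM and was not called (1.09, adjusted p = 0.298). Peg3 (1.58, adjusted p = 0.0227), Nnat (2.93, adjusted p = 0.0436) and Slc38a4 (-2.12, adjusted p = 0.0132) lost their calls under 3, 5 and 3 of the 6 omissions. The 4 higher became 2 without CH+LIF LP replicate 1 or 3 and 7 without 2i+LIF LP replicate 1, and the 2 lower became 1 without PO replicate 3 or CH+LIF LP replicate 2 or 3.

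Markers of other cell types were summed in each library. Over the marker list, trophoblast genes had 24.2 to 52.8 CPM in PO and 9.2 to 9.87 CPM in CH+LIF LP, primitive endoderm genes 10.2 to 15.8 and 3.8 to 6.66 CPM, and mesendoderm genes 15.5 to 20.7 and 7.27 to 8.47 CPM. In each of these 3 sums CH+LIF LP was the lower group, with 0 single markers called. Neural markers summed to more in both groups, at 428 to 575 CPM in PO and 545 to 717 CPM in CH+LIF LP, with 0 of the 5 tested called and Neurog2 and Dcx at 0 in both. Some markers were at 0 in CH+LIF LP, whose libraries had fewer counts. Among them were Cdx2, Elf5 and Hand1 for trophoblast, Gata6 and Sox17 for primitive endoderm, and T and Gsc for mesendoderm. Of these, Elf5, Sox17 and T were at 0 in PO as well. Sox7 and Foxa2 of primitive endoderm went the other way, at 0 in PO only. In each group 5 primitive endoderm markers were without counts. Fibroblast markers summed to 20.1 to 33.9 and 9.11 to 31.5 CPM, with Postn and Twist2 at 0 in both groups. Blood markers summed to 12.7 to 53.3 and 19.4 to 39.9 CPM, with Ptprc at 0 in both. The 8 markers of embryonic stem cells had counts in both groups and summed to 2250 to 3519 and 1513 to 1734 CPM, also lower in CH+LIF LP, with 4 of the 8 called lower.

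In the broader lineage lists 2 of 9 tested trophoblast genes fell and 2 of 10 neural genes rose. Cited1, a transcriptional coactivator of trophoblast, had 6.86, 3.66 and 13.5 CPM in PO and 0.484, 0.605 and 0 CPM in CH+LIF LP, 81 counts against 2 (ratio 19, 5.09 to 160, adjusted p = 0.00586). Krt8, a keratin of simple epithelia, had 11.8 to 55.3 and 1.52 to 10.3 CPM (-2.09 ± 0.64, adjusted p = 0.0415), lost without PO replicate 3 or any CH+LIF LP library. Nefm, a neurofilament gene overlapping Nefl, had 23.2, 5.23 and 14.2 CPM and 50.9, 47.2 and 79.7 CPM (2.09 ± 0.45, adjusted p = 0.00579). Gap43, a growth cone protein, had 2 counts in PO and 40 in CH+LIF LP (ratio 42.6, 11.1 to 364, adjusted p = 0.00526). The neural progenitor gene Nes had 10.7 to 23.7 and 6.78 to 11.4 CPM. The neural count of 2 became 3 without PO replicate 1 or CH+LIF LP replicate 3, and 6 when 2i+LIF LP replicate 1 was left out, and the trophoblast count became 1 without PO replicate 3 or any CH+LIF LP library.

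Of 24 tested genes of the list for the stress factor ATF4 and the amino acid response 7 rose and 0 fell, with a median fold change of 1.04, and 4 rose in a fit of only the groups compared. Trib3 (ENSMUSG00000032715, chr2:152337422-152344032), a pseudokinase induced by ATF4, had 3.69, 9.15 and 4.49 CPM in PO and 79, 55.1 and 94.2 CPM in CH+LIF LP (3.67 ± 0.50, adjusted p = 7.53e-05). Mthfd2, a mitochondrial enzyme of one-carbon metabolism, had 26.9, 77.1 and 45.4 CPM and 217, 281 and 464 CPM (2.68 ± 0.38, adjusted p = 0.000134). The groups stood well apart in both. Nupr1, a stress-induced nuclear protein, had 5.28 to 21.4 and 37.3 to 94.9 CPM (2.38 ± 0.46, adjusted p = 0.00232), and Psat1, of serine synthesis, 22.2 to 99.9 and 162 to 255 CPM (1.61 ± 0.40, adjusted p = 0.0139). Vldlr, a lipoprotein receptor, had 1 count in PO and 37 in CH+LIF LP (ratio 78.9, 13.3 to 3199, adjusted p = 0.00629). These 5 calls held under each omission. Atf4 itself had 239 to 419 and 729 to 1076 CPM (1.33 ± 0.37, adjusted p = 0.0262), lost without PO replicate 2 or 3 or CH+LIF LP replicate 3 (0.0516 to 0.101), and Atf5 was lost under 4 omissions. Asns, the asparagine synthetase gene, had 172 to 520 and 185 to 283 CPM and was not called.

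Of 31 tested genes of cholesterol and fatty acid synthesis 6 were higher and 0 lower, with a median fold change of 0.56. Cyp51, the lanosterol demethylase gene that overlaps Akap9, had 63.8, 101 and 92.5 CPM in PO and 300, 243 and 194 CPM in CH+LIF LP (1.52 ± 0.35, adjusted p = 0.00849). Mvd, of the mevalonate pathway, had 60.1, 58.6 and 42.9 CPM and 242, 159 and 120 CPM (1.69 ± 0.36, adjusted p = 0.00526), and Pmvk, of the same pathway, 4.22 to 41.6 and 92.6 to 126 CPM (1.92 ± 0.47, adjusted p = 0.0127). These 3 calls held under each omission, and those of Fdps and Sc5d were lost under 3 and 4 of them. The count of 6 became 3 without PO replicate 2 or CH+LIF LP replicate 1.

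Of 26 tested genes of glycolysis and hypoxia 2 were called in each direction. Pdk1, the kinase that shuts off pyruvate dehydrogenase, had 12.7, 11.5 and 17.9 CPM in PO and 87.7, 36.9 and 48.6 CPM in CH+LIF LP (2.03 ± 0.37, adjusted p = 0.00151). Hk1, a hexokinase gene overlapping Hk1os, had 44.3, 66.2 and 87 CPM and 8.24, 21.8 and 18.2 CPM (-2.05 ± 0.42, adjusted p = 0.00347). Both held under each omission, unlike Pgam1 (1.37) and Slc2a3 (-1.16), which were lost under 5. Ldha was at 102 to 518 and 393 to 1684 CPM, with CH+LIF LP replicate 1 the high library, and was not called. Of the nuclear respiratory chain genes Ndufv1, a complex I subunit, was the 1 called, at 65.9 to 114 and 303 to 330 CPM (1.77 ± 0.37, adjusted p = 0.00414).

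Transcripts of the mitochondrial genome were called lower in 6 of 11 cases, and these calls moved with PO replicate 1. mt-Nd2 had 135028, 18333 and 15696 CPM in PO and 5558, 5323 and 3145 CPM in CH+LIF LP (-3.59 ± 0.79, adjusted p = 0.00666). PO replicate 1 was far above the other PO libraries, and those were above all 3 CH+LIF LP libraries. Without it the adjusted p of mt-Nd2 was 0.064 and 1 of 11 genes was called, mt-Nd6, which was called under each omission (62.8, 6.28 and 8.23 against 0.484, 0 and 0.759 CPM). The count was 9 and 8 without PO replicate 2 and 3, 4 without CH+LIF LP replicate 1, and 3 without CH+LIF LP replicate 2 or 3.

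Among genes of adhesion and the cytoskeleton Vim (ENSMUSG00000026728, chr2:13573927-13582826), which encodes the intermediate filament vimentin, rose from 13.7, 53.9 and 76 CPM in PO to 717, 347 and 459 CPM in CH+LIF LP (3.39 ± 0.49, adjusted p = 0.00016), a call that held under each omission. Cdh1, the E-cadherin gene, fell from 922, 1340 and 919 CPM to 421, 502 and 548 CPM (-1.11 ± 0.33, adjusted p = 0.0378). The groups did not overlap in Cdh1, but the call was lost without any one library other than PO replicate 1 (0.0526 to 0.14). Lgals1 was also called higher and Itgb5 and Krt8 lower, of 32 tested in all; the 3 lower became 0 without PO replicate 3 or CH+LIF LP replicate 1 or 2 and 1 without PO replicate 2 or CH+LIF LP replicate 3. The 2 higher became 1 without PO replicate 3 or CH+LIF LP replicate 2 or 3.

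Of 31 tested cell cycle genes 2 were called (6.45%), a share below the 8.31% over all genes tested. Both were higher, Mki67 (1.17 ± 0.36, adjusted p = 0.0412) and E2f2 (1.77 ± 0.54, adjusted p = 0.0416). Both calls were lost under 4 or 5 omissions. Ezh2, the Polycomb methyltransferase, was at 146.4 to 370.9 and 358.9 to 480.7 CPM (0.78, adjusted p = 0.168). Of 24 tested p53 targets Plk3 was the 1 called (4.17%), also below the share over all genes tested. This call was lost without PO replicate 2 or 3 or CH+LIF LP replicate 1 (adjusted p = 0.0909 to 0.261). When 2i+LIF LP replicate 1 was left out, 3 p53 targets were higher and 3 lower. Cdkn1a, the p21 gene, was at 223.7 to 530.2 and 154.1 to 258.2 CPM without being called.

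Genes of at least 5 CPM in a group, without overlap between the libraries, were ranked by fitted fold change. This ranking puts genes with no count in a group first, and their folds are lower bounds, so it is no order of measured size. Besides Taf7l and Mest, it named as rises Usp51 (7.27, 13.9 and 6.08 CPM, at least 32.7-fold), a histone deubiquitinase, Kcnmb2 (11.6, 4.84 and 8.35 CPM, at least 30.6-fold), a potassium channel subunit, Ramp3 (8.24, 12.1 and 1.52 CPM, at least 27.7-fold), a receptor activity modifying protein, Hist1h4k (at least 27-fold), Tmem45a (at least 23.5-fold) and Hist4h4 (at least 19.9-fold). None of these 6 had a count in PO. As falls it named Sp100 (10, 35.3 and 23.7 CPM in PO, at least 38.9-fold), a component of PML nuclear bodies, Lcp1 (12.1, 9.94 and 21.2 CPM, at least 22.8-fold), an actin-bundling protein, Mgll (at least 14.5-fold), a monoacylglycerol lipase, Plbd1 (at least 11.7-fold), Tmem132d (at least 11.4-fold), Rasgrp1 (at least 10.9-fold), Ttll6 (at least 8.75-fold) and Gm34552 (at least 7.66-fold). None of these 8 had a count in CH+LIF LP. Hist4h4 lost its call without CH+LIF LP replicate 2, Mgll and Tmem132d without CH+LIF LP replicate 1, Rasgrp1 without CH+LIF LP replicate 1 or 2, and Ttll6 and Gm34552 without PO replicate 1 or any CH+LIF LP library.

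By size in CPM, the rises included Tuba1c, an alpha tubulin, at 325, 1240 and 830 CPM in PO and 3598, 2431 and 2716 CPM in CH+LIF LP (1.87 ± 0.43, adjusted p = 0.00927), and H2afz, which encodes the histone variant H2A.Z, at 45.9, 135 and 133 and 1145, 659 and 763 CPM (3.03 ± 0.59, adjusted p = 0.00234). Snrpd3, a core spliceosome protein, rose from 117 to 332 CPM to 812 to 943 CPM (2.01 ± 0.41, adjusted p = 0.00385), and Farsa, a subunit of phenylalanyl-tRNA synthetase, from 288 to 388 CPM to 683 to 1001 CPM (1.35 ± 0.32, adjusted p = 0.00956). These 4 held under each omission, and Canx, the calnexin gene (1.09, adjusted p = 0.0371), under none. Of the falls by CPM, Tfcp2l1, Cdh1 and Dppa5a were still called without PO replicate 1 (-1.99, -1.21 and -3.21, adjusted p = 0.00962, 0.0307 and 0.0129), and those that follow were not. Malat1, a nuclear noncoding RNA, had 30289, 5074 and 5971 CPM in PO and 1998, 2232 and 2356 CPM in CH+LIF LP (-2.65 ± 0.60, adjusted p = 0.00742), and without PO replicate 1 the fold change was -1.34 (adjusted p = 0.0806). Baz2b, a bromodomain gene, had 1051, 173 and 170 CPM in PO and 69.9 to 78.1 CPM in CH+LIF LP (-2.64 ± 0.59, adjusted p = 0.00701, and 0.108 without PO replicate 1). Usp48 and Cdc5l were likewise highest in PO replicate 1, at 1266 and 1231 CPM against 453 to 559 CPM in the other PO libraries, and lost their calls without it. Usp48 also lost its call without any one CH+LIF LP library, and Cdc5l without CH+LIF LP replicate 1 or 2.

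Gene length moved with the direction of the calls. The median length of the longest annotated transcript was 2836 bases for the genes called higher, 3984 for those called lower and 3414 for all tested. The tested genes were divided by length into 5 classes of equal size. In the shortest class 6.39% were called higher and 2.58% lower, and in the longest class 2.82% and 6.44%. Without PO replicate 1 the shortest class had 96 higher and 70 lower genes in place of 136 and 55, and the longest 92 and 74 in place of 60 and 137. The median log2 fold change ran from 0.19 in the shortest class to -0.26 in the longest, and from 0.04 to 0.03 without PO replicate 1. For CH+LIF LP over 2i+LIF LP it ran from 0.34 to -0.21. The part of length in any single gene's difference was not tested.

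**Figure D4:**
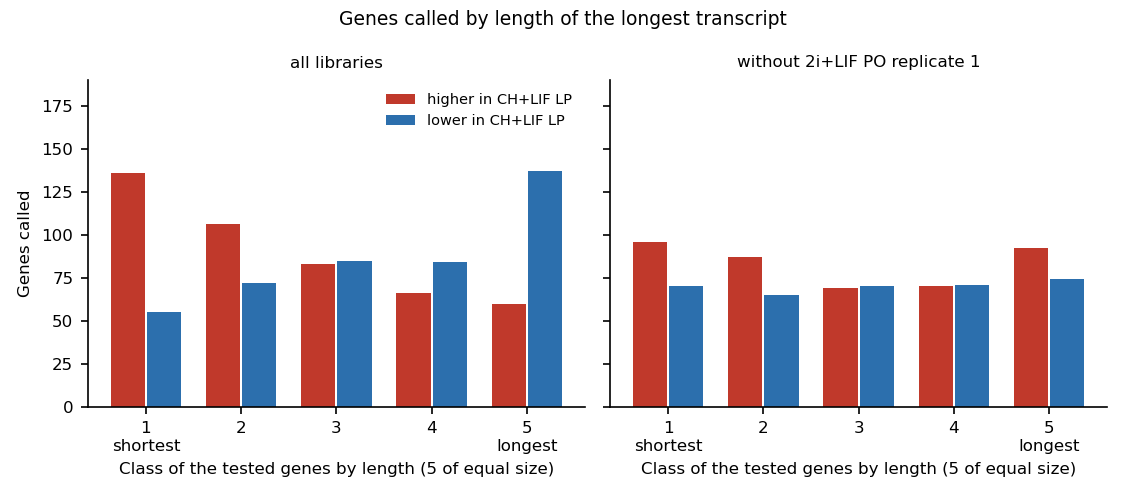
Bars give the number of genes called higher (red) and lower (blue) in CH+LIF LP in 5 equal classes of the tested genes by length of the longest transcript. With all libraries the higher calls decline from 136 to 60 and the lower calls climb from 55 to 137 with length; without 2i+LIF PO replicate 1 the counts are 96 and 70 in the shortest and 92 and 74 in the longest class.

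To see whether the difference from PO depended on the medium of the label, CH+LIF LP was set against 2i+LIF LP, whose 3 libraries were in the same run as CH+LIF LP. Since PO drops out of this contrast, it tests the difference between the changes of both groups from PO. Of 10643 genes 0 were called by edgeR (0%), the lowest adjusted p being 0.139, with 950 genes at an unadjusted p under 0.05; DESeq2 called 25, and leaving out 2i+LIF LP replicate 2 or 3 gave 8 and 12. A missed threshold does not show that the groups were alike. 2i+LIF LP replicate 1 stood apart, with 31.7% of its counts in Gm42418 and a mean correlation of 0.787 with its replicates. In 2i+LIF LP against PO, 539 genes were called (5.06%), and 1 in a fit of these 6 libraries alone; the count was 1211 without PO replicate 1, 181 without PO replicate 2, 237 without PO replicate 3, and 315 when 2i+LIF LP replicate 3 was left out.

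Some of these genes were near their CH+LIF LP level in 2 or 3 of the 2i+LIF LP libraries, whose label includes 2i. Dusp6 had 0.701, 34.4 and 26.3 CPM in 2i+LIF LP, Id1 had 6.31, 104 and 117 CPM, and Bmp4 had 21.7, 849 and 699 CPM. In each of the 3 genes 2i+LIF LP replicate 1 was near or below PO and the other replicates were near CH+LIF LP. Etv4 was high in all 3, at 135, 169 and 161 CPM (CH+LIF LP over 2i+LIF LP -0.12 ± 0.35, adjusted p = 0.915). Sp5 had the smallest adjusted p of the contrast among the genes named, with 62.4, 18.5 and 8.39 CPM in 2i+LIF LP against 0.969, 0.605 and 1.52 CPM in CH+LIF LP (-4.79 ± 0.95, adjusted p = 0.139).

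Levels in the other groups of the same run split the genes into different patterns. Dusp6 averaged 37.1 CPM in CH+LIF HP and 27.6 CPM in LIF LP, but only 0.411 CPM in LIF HP. In 2i+LIF HP its mean was 3.37 CPM. Bmp4 averaged 421 and 466 CPM in CH+LIF HP and LIF LP and 81.5 and 32.4 CPM in 2i+LIF HP and LIF HP, and Id1 73.3 and 70.7 against 15.4 and 15.8 CPM. Taf7l, with no count in PO, averaged 19.4 CPM in 2i+LIF LP, 18.8 in LIF LP, 48.7 in 2i+LIF HP, 47.3 in CH+LIF HP and 33 in LIF HP. Xlr3a averaged 25.2 to 79.5 CPM in the same 5 groups against 3.78 CPM in PO. For such genes each group outside PO was above PO, and the sequencing run and the start of culture cannot be told apart. Tfcp2l1 averaged 1009 CPM in PO, 196 CPM in CH+LIF LP and 160 to 477 CPM in the other 5 groups.

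**Figure D5:**
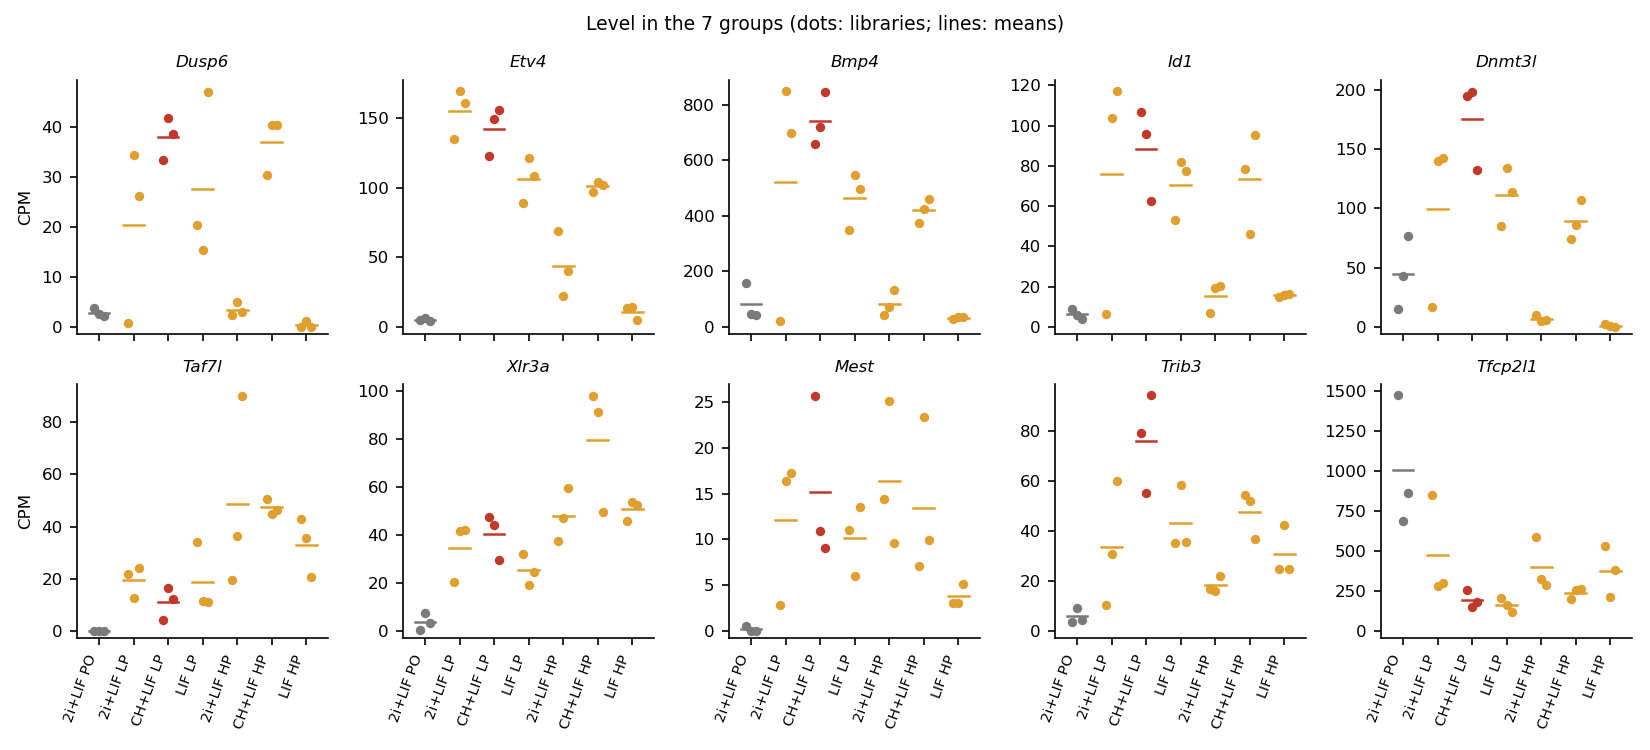
Each dot is 1 library and each line the mean of 3, in CPM, for 10 genes in the 7 groups of the series (grey, 2i+LIF PO; red, CH+LIF LP; yellow, the other groups). Dusp6, Bmp4, Id1 and Dnmt3l are high in CH+LIF LP and low in 2i+LIF HP and LIF HP, whereas Taf7l and Xlr3a are above the PO mean in each other group.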

How the data were processed

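For each library the authors deposited raw counts, whole numbers per Ensembl gene ID without normalization. Per the submitters' processing notes, bcl2fastq, STAR 2.6.0a, HTSeq and the build mm10 were used; the annotation, strand setting and filters are not given in the sources used here. Entries that name no gene, 38 to 52.6% of a library, were left out. Symbols and positions came from GENCODE M21 (31011 of 31053 IDs found); 11038 genes overlap another on either strand and may share reads. 

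All 21 libraries entered 1 edgeR 4.0.16 quasi-likelihood fit (R 4.3.3) with a coefficient per group, TMM scaling, filterByExpr and two-sided tests with Benjamini-Hochberg adjustment; CPM used TMM-scaled library sizes. Lower bounds against a group without counts used 3 pooled counts, and ratios against 1 to 3 counts have exact 95% intervals, without TMM; both cover counting error only. Alternatives were DESeq2 1.42.0, limma 3.58.1 (voom), size factors, no filter, thinning to 1132126 counts, only the groups compared, a replicate block, removal of mitochondrial genes and Gm42418, and omission of each library compared and of 2i+LIF LP replicate 1; the joint omission of 2 libraries was added after seeing the data.

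The members and the 27 gene lists were chosen with earlier results of these data known. Named genes are list members and, among called genes of at least 5 CPM in a group without overlap, the 8 largest rises and falls in fold change and in CPM, mitochondrial and ribosomal RNA loci left out of the latter. Same-numbered 2i+LIF LP and PO libraries deviated together (correlations 0.397, 0.345 and 0.179, all from the data, not the labels). However, 2i+LIF LP replicate 3 correlated best with PO replicate 2. The replicate block fits effects of the replicate number that are common to all 21 libraries, so it is no pairing of these groups alone. Scripts were tested on simulated counts. A few list members are not reported here.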

Additional observations from a re-analysis of the deposited data

How the results depend on the processing

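In CH+LIF LP over PO 884 genes were called, 4.24% of those tested higher and 4.07% lower. A fit of only the groups compared gave 452 (1.95% and 2.3%), limma-voom with quality weights 2325 (11.5% and 10.3%), and DESeq2 1322 (6.28% lower). Without a filter 1190 were called, 669 of them lower, which is 3.53% of the 18931 then tested. The joint omission of the replicates 1 of PO and 2i+LIF LP, chosen after seeing the data, gave 1428 (6.89% and 6.53%). Omitting 1 library gave 390 to 1384 genes, with 2.21% to 6.64% higher and 1.46% to 6.36% lower. CH+LIF LP against 2i+LIF LP gave 0 genes, 25 with DESeq2, 133 without a filter, 2 with limma-voom and 0 to 12 over the omissions. For 2i+LIF LP against PO, 539 became 1030 with DESeq2, 820 without a filter, 1 with only the groups compared, 1928 with limma-voom and 181 to 1211 over the omissions. The cause was not tested.

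Of 124 called genes that could be named, 62 kept their call under each alternative tried for them, up to 16, and 0 changed sign. For CH+LIF LP and PO the replicate numbers were not taken as pairs: correlations of same-numbered deviations were 0.119, 0.0114 and 0.0524, and 2 of the 3 numbers correlated best with their own. With the replicate block 976 genes were called for CH+LIF LP over PO (522 higher, 454 lower), 0 over 2i+LIF LP and 614 for 2i+LIF LP over PO, against 539 without it.

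At this depth 3 counts correspond to 0.793 to 2.26 CPM of a library's gene counts, and single-library levels near or below that rest on few counts.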

Other observations

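Genes outside the lists were chosen after their values were seen. Replication-dependent histone genes, read as those with Hist cluster symbols, were higher in 15 of 27 tested cases and lower in 0, with a median log2 fold change of 2.99, beside the background of 4.24% higher. Their near-identical copies may share reads, and the length of genes moved with the direction of calls, so the part of length was not tested here. Hist1h4d, an H4 gene, had 0.528, 0.261 and 0 CPM in PO and 12.1, 15.7 and 26.6 CPM in CH+LIF LP (ratio of counts 91.7, 95% interval 24.6 to 769, edgeR adjusted p = 0.0025).

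Trh, the thyrotropin-releasing hormone gene, had 27.4, 12.6 and 26.2 CPM in PO and 506, 261 and 459 CPM in CH+LIF LP (log2 fold change 4.22 ± 0.65 SE, edgeR adjusted p = 0.00028). It averaged 502 CPM in CH+LIF HP, 60.2 CPM in 2i+LIF HP and, in LIF HP, 28.9 CPM. Tgm3, a transglutaminase, had 0, 1.31 and 1.99 CPM and 70.7, 50.8 and 24.3 CPM (5.20 ± 0.81, adjusted p = 0.00028), and averaged 47 CPM in CH+LIF HP, 4.08 CPM in 2i+LIF HP and, in LIF HP, 1.27 CPM. Ly6a, which encodes the surface protein Sca-1, went the other way, with 278, 419 and 286 CPM in PO and 7.27, 11.5 and 24.3 CPM in CH+LIF LP (-4.54 ± 0.72, adjusted p = 0.000345). In 2i+LIF LP it had 309, 44.3 and 20.1 CPM, with replicate 1 at the PO level. Aspa, the aspartoacylase gene, had 134, 52 and 33.7 CPM against 2.42, 0 and 1.52 CPM (-5.67 ± 0.81, adjusted p = 0.000134). Parm1, a membrane mucin, had 55.4, 20.7 and 49.9 CPM against 1.45, 0.605 and 0.759 CPM (-5.32 ± 1.10, adjusted p = 0.004). These calls held when each of the 6 libraries was left out in turn.

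Hoxc9, a homeobox gene overlapping Hoxc5, had 170 CPM in PO replicate 1, 6.28 and 7.23 CPM in the other PO libraries, and 1.45, 0 and 0.759 CPM in CH+LIF LP (-6.15 ± 1.19, adjusted p = 0.00234). Without PO replicate 1 its fold change was -3.03 (adjusted p = 0.0494). The X-linked 1700013H16Rik had 3 counts in PO and 133 in CH+LIF LP (ratio 94.5, 31.7 to 464, adjusted p = 0.000436) and averaged 7.62 CPM in LIF LP but, in 2i+LIF HP, 142.7 CPM.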
